A study of Mus musculus with 20 samples.

Results

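The 10 genes described here belong to the Notch pathway. They were followed in cultured mouse blood stem and progenitor cells, wild type or labelled as knockouts of 1 or both copies of Runx2. They were the receptor genes Notch1, Notch2, Notch3 and Notch4, the ligand genes Jag1 and Jag2, the DNA-binding effector gene Rbpj, and the target genes Hes1, Nrarp and Dtx1. The genes were chosen by name, and all 10 of the 10 were found among the 49997 genes of each deposited count table. Polyadenylated RNA was sequenced from 18 libraries in 6 groups of 3. The HSC groups were primary bone marrow cells sorted as CD201+CD150+cKit+Sca1+Lineage- and cultured, and were homozygous for the Runx2 knockout (HSC hom), heterozygous (HSC het) or wild type (HSC WT). The HPC groups were primary bone marrow cells sorted as CD201-CD150-cKit+Sca1+Lineage- and cultured, again homozygous (HPC hom), heterozygous (HPC het) or wild type (HPC WT). Per the series' design text the knockout came from a floxed Runx2 allele or from CRISPR. The labels give neither the origin of a given library's knockout, nor any Cre driver, nor the age of the animals. The labels also do not say whether the 3 libraries of a group came from separate animals or cultures, so every p-value measures the spread between these libraries, which may be technical.

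Notch receptors are cell-surface proteins that are cut when a ligand on a neighbouring cell, of the Jagged or Delta-like family, binds and pulls on them. The released intracellular domain enters the nucleus and joins RBPJ, a protein that otherwise recruits repressors, to switch on target genes. Among the classical targets are Hes1, a transcriptional repressor, Nrarp, which damps Notch signalling, and Dtx1, an E3 ubiquitin ligase linked to the receptor. In the blood system the pathway is known for specifying the first stem cells in the embryo and for committing progenitors to the T-cell lineage. RUNX2 is a RUNX-family transcription factor best known as a regulator of bone formation.

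The libraries held 16663497 to 27061457 counts, and a level of 3 counts, the highest that a count of 0 leaves plausible, lay between 0.111 and 0.18 CPM (counts scaled to library size and composition). Runx2 itself lay at 26.7 to 30.4 CPM in HSC hom, 87.6 to 96.0 CPM in HSC het and 126 to 133 CPM in HSC WT. It lay at 20.9 to 23.0 CPM in HPC hom, 92.0 to 100 CPM in HPC het and 112 to 120 CPM in HPC WT, so the libraries followed their genotype labels in both cell types. Of 9 markers of stem cells that could be tested, 8 were called higher in HSC WT than in HPC WT, but Ly6a, which encodes Sca1, was listed at 0 counts in all 18 libraries although both populations were sorted for that protein. Ddx3y lay at 113 to 157 CPM in the HSC libraries and at 0 CPM in the HPC libraries, and Xist at 0 to 1.15 CPM in HSC and 2753 to 4742 CPM in HPC, so cell type, count table and sex of the donors cannot be told apart. In bulk RNA, fewer cells expressing a gene and less RNA per cell cannot be told apart either.

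RefSeq promoter windows on GRCm38 (mm10), the 250 bases before an annotated start, were available for 9 of the 10 genes, all but Hes1. The windows are shown for Jag2 and Notch1, the genes that passed the test between genotypes, and for Rbpj, where matches to the RBPJ motif were found. Each sequence runs 5′ to 3′ along the gene's own strand. The Jag2 and Rbpj windows precede the RefSeq start used but lie inside the wider gene bounds of the count tables. Capitals mark matches to the letters TGGGAA (RBPJ), TGTGGT or TGCGGT (RUNX), or CACGNG (HES), searched on both strands.
Jag2, chr12:112929496-112929745, minus strand: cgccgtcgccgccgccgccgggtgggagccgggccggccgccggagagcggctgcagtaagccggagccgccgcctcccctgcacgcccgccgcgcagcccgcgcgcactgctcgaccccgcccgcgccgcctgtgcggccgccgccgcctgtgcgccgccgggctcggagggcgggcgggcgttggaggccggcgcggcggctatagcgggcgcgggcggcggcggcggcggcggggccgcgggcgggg
Notch1, chr2:26503823-26504072, minus strand: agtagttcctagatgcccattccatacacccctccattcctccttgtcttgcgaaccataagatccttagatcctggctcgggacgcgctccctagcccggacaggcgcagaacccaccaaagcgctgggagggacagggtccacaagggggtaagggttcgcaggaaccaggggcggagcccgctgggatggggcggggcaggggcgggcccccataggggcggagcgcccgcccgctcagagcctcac
Rbpj, chr5:53590096-53590345, plus strand: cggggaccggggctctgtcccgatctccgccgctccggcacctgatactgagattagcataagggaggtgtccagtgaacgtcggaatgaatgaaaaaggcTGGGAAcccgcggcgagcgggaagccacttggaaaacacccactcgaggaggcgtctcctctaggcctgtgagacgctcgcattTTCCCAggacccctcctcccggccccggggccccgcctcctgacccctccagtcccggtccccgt
The Jag2 and Notch1 windows held none of these letters, and 87.2% of the Jag2 window was G or C, against 66.0% in Notch1 and 65.2% in Rbpj. The Rbpj window held the RBPJ letters on the plus strand at bases 149 to 144 before the start and on the minus strand at bases 65 to 60. Over the windows of all 9 genes, the RBPJ letters occurred in 1 gene, the RUNX letters in 0 and the HES letters in 5 (Notch2, Notch3, Jag1, Nrarp and Dtx1). Over all 32851 RefSeq mouse windows of this length, the shares holding them were 21.6% for RBPJ, 18.6% for RUNX and 23.5% for HES. A match describes letters in this window and is no evidence of binding.

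Of the 10 genes, 9 had enough counts to be tested in each cell type. Dtx1 was at 0 to 6 counts in every library and was not tested. A gene was called where edgeR's quasi-likelihood test gave an adjusted p under 0.05 among all genes tested, and "rose" and "fell" are used for called genes alone. Each genotype comparison called 0 or 1 of the 9 Notch genes, where the share of all genes called ran from 0.0134% to 16.1%. The one that was called in both cell types, Jag2, went opposite ways.

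**Figure D1:**
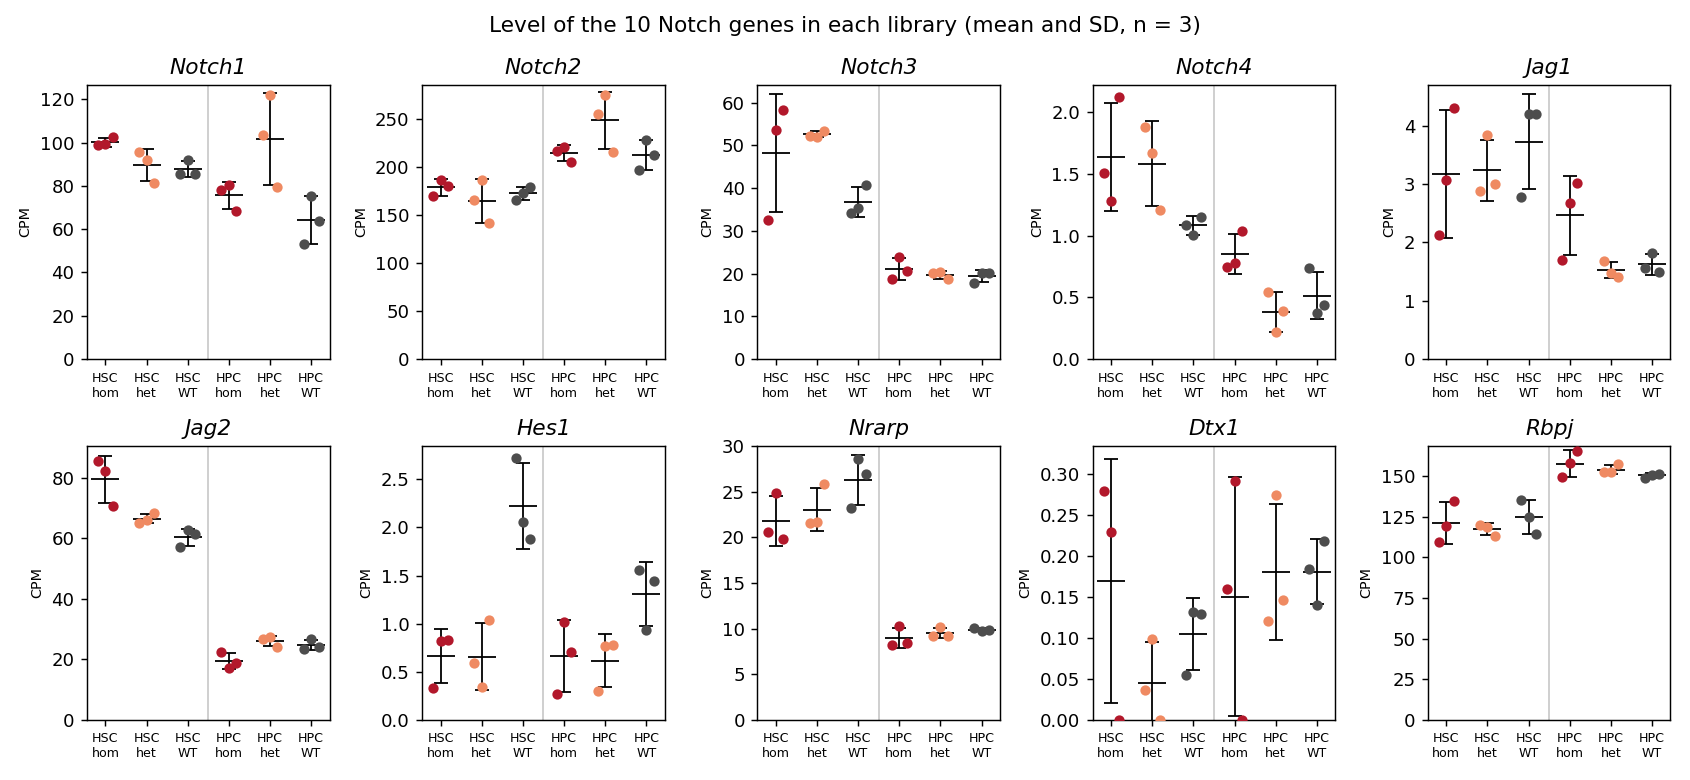
Level of each of the 10 genes in CPM (y axis, linear, from 0) in each of the 18 libraries (points), with the mean (long bar) and SD (short bars) of the 3 libraries of each group along the x axis. CPM were scaled within HSC and within HPC, on either side of the grey line. Jag2 stands highest in HSC hom and lowest in HPC hom, Hes1 stands highest in both WT groups, and Notch1 spreads most in HPC het.

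Among the receptors, Notch2 and Notch1 were the abundant ones, Notch3 was intermediate and Notch4 was scarce, coming near the limit of detection in HPC. The receptor gene called between genotypes was Notch1, in HPC het. Notch1 (chr2:26457902-26503822, minus strand) encodes the receptor that drives T-cell commitment. In HPC it measured 77.9, 80.3 and 68.6 CPM in the hom libraries, 104, 122 and 79.6 CPM in the het libraries and 53.1, 75.4 and 63.7 CPM in the WT libraries. All 3 het libraries lay above all 3 WT libraries, the lowest het library lay only just above the highest WT library, and the hom libraries overlapped both other groups. Notch1 rose in HPC het relative to HPC WT by 0.67 ± 0.17 on the log2 scale (SE; adjusted p = 0.0301, edgeR). It was the 1 gene called of 9 Notch genes tested in that comparison, in which 16.1% of 13855 genes were called. HPC hom against HPC WT gave 0.24 ± 0.17 for Notch1 and was not called (adjusted p = 0.488, edgeR), and HPC hom against HPC het gave -0.43 ± 0.17 (adjusted p = 0.165, edgeR). The het call was lost without het replicate 1 (adjusted p = 0.0877), without WT replicate 1 (0.0914) and without WT replicate 3 (0.106), each by edgeR and with log2 values of 0.55 to 0.66. It was also lost with no filter on low counts (adjusted p = 0.0543, edgeR) and with HPC het and WT fitted alone (0.0808).

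Markers of dendritic cells summed to 380 to 403 CPM in the HPC het libraries and to 187 to 231 CPM in the HPC WT libraries. Of 6 such markers 2 (Flt3 and Ccr7) were called higher and 0 lower, and none was at 0 counts. The median log2 difference of the 6 was 0.18. This sum does not stand for all 6 markers. In HPC hom it was 237 to 284 CPM, although 5 of the 6 were called lower than in WT and 1 higher. Monocyte markers summed to 533 to 540 CPM in HPC het and 282 to 316 CPM in HPC WT, with 6 of 7 called higher. Neutrophil granule markers summed to 1886 to 2285 CPM in HPC het and 1518 to 1612 CPM in HPC WT, with 4 of 8 called higher, and megakaryocyte markers to 371 to 443 CPM in HPC het and 589 to 648 CPM in HPC WT, with 4 of 6 called lower. Of the 9 stem-cell markers tested, 2 were called higher and 2 lower in HPC het. The part of these cells in the Notch1 difference was not tested. The marker sums of T cells were 7.55 to 8.72 CPM in HPC het and 12.6 to 13.6 CPM in HPC WT, and Cd3e, a defining T-cell gene, was at 0 counts in both groups.

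In HSC, Notch1 measured 98.9, 99.1 and 102 CPM in the hom libraries, 95.8, 91.9 and 81.5 CPM in the het libraries and 85.4, 92.1 and 85.7 CPM in the WT libraries. The hom libraries lay close together above all het and WT libraries, while het and WT overlapped. The fitted difference of HSC hom from HSC WT, 0.19 ± 0.07 on the log2 scale, was not called (adjusted p = 0.19, edgeR). Of the exon bases of Notch1, 11.3% also lie in exons of 0610009E02Rik, a gene with 2 to 14 counts per library, and the counting did not use strand.

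Notch2 (chr3:98013538-98150367, plus strand) encodes the receptor known for marginal zone B cells. In HSC it measured 170, 187 and 180 CPM in the hom libraries, 166, 187 and 142 CPM in het and 166, 174 and 179 CPM in WT. In HPC it measured 218, 221 and 206 CPM in the hom libraries, 255, 275 and 216 CPM in het and 198, 228 and 213 CPM in WT. The groups overlapped in both cell types, and the het libraries of HPC spread the most. No genotype comparison called Notch2, and its largest difference was HPC het against HPC WT, 0.23 ± 0.08 on the log2 scale (adjusted p = 0.0581, edgeR). DESeq2 called that difference, as did edgeR with no filter on low counts, with a replicate block, without HPC het replicate 3 and without HPC WT replicate 2. For hom against WT the approximate 95% intervals of the log2 difference of Notch2 were -0.13 to 0.22 in HSC and -0.14 to 0.17 in HPC.

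Notch3 (chr17:32120820-32166896, minus strand) encodes a receptor best known in vascular smooth muscle and in T-cell leukaemia. In HSC it measured 32.6, 53.6 and 58.4 CPM in the hom libraries, 52.2, 52.1 and 53.4 CPM in het and 34.1, 35.4 and 40.6 CPM in WT. The het libraries were tightly grouped above all WT libraries, and 1 of the 3 hom libraries, replicate 1, lay below every WT library. HSC het against HSC WT gave 0.52 ± 0.17 on the log2 scale (adjusted p = 0.243, edgeR) and HSC hom against HSC WT gave 0.39 ± 0.17 (adjusted p = 0.238), so neither was called. Without hom replicate 1 the hom difference of Notch3 was 0.60 and was called (adjusted p = 0.00226, edgeR). With HSC het and WT fitted alone the het difference was called (adjusted p = 0.00682, edgeR). In HPC, Notch3 measured 18.8, 23.9 and 20.5 CPM in hom, 20.0, 20.4 and 18.7 CPM in het and 17.9, 20.1 and 20.2 CPM in WT, and all 3 groups overlapped. Notch3 lies 12.33 Mb from Runx2 on chromosome 17.

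Notch4 (chr17:34564286-34588543, plus strand), the receptor gene known from endothelium, had 20 to 51 counts in each HSC library and 4 to 22 counts in each HPC library. It measured 1.51, 1.28 and 2.13 CPM in HSC hom, 1.88, 1.67 and 1.21 CPM in HSC het and 1.09, 1.00 and 1.16 CPM in HSC WT. All hom and all het libraries of HSC lay above the WT libraries, with log2 differences of 0.59 ± 0.34 for hom (adjusted p = 0.372, edgeR) and 0.55 ± 0.34 for het (adjusted p = 0.493). In HPC it measured 0.745, 0.776 and 1.04 CPM in hom, 0.540, 0.219 and 0.390 CPM in het and 0.734, 0.374 and 0.437 CPM in WT, and the hom difference from WT of 0.73 ± 0.40 was not called (adjusted p = 0.314, edgeR). Notch4 lies 9.91 Mb from Runx2, and the annotation lists it on 3 further contigs, so its level is uncertain. Endothelial markers summed to 168 to 212 CPM in HSC hom, 199 to 213 CPM in HSC het and 189 to 203 CPM in HSC WT, ranges that overlap. In HPC they summed to 286 to 312 CPM in hom, 274 to 304 CPM in het and 254 to 268 CPM in WT. The hom and het ranges thus lay above WT, with Pecam1 called higher and Kdr lower in hom. In HPC het, Pecam1, Tek and Kdr were called against WT, 1 higher and 2 lower. The median log2 difference of the 7 tested markers was 0.16 in hom and -0.37 in het. The part of the endothelial markers in the Notch4 levels was not tested.

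The ligand gene Jag2 was called in both cell types, in opposite directions. Jag2 (chr12:112907803-112929812, minus strand) encodes a Jagged-family ligand that activates Notch on neighbouring cells and has the GC-rich window printed above. In HSC it measured 85.3, 82.1 and 70.8 CPM in the hom libraries, 65.1, 66.2 and 68.2 CPM in the het libraries and 57.1, 62.5 and 61.2 CPM in the WT libraries. The 3 groups did not overlap and ranked hom, het, WT from high to low. Jag2 rose in HSC hom relative to HSC WT by 0.40 ± 0.08 on the log2 scale (SE; adjusted p = 0.0246, edgeR). It was the 1 gene called of 9 Notch genes tested, where 2.01% of 14959 genes were called. HSC het against HSC WT gave 0.14 ± 0.08 (adjusted p = 0.465, edgeR) and HSC hom against HSC het gave 0.26 ± 0.08 (adjusted p = 0.239), and neither was called.

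In HPC, Jag2 measured 22.3, 17.2 and 18.8 CPM in the hom libraries, 26.8, 27.2 and 24.0 CPM in the het libraries and 23.5, 26.6 and 23.9 CPM in the WT libraries. Every hom library lay below every het and WT library, while het and WT overlapped. Jag2 fell in HPC hom by 0.34 on the log2 scale relative to HPC WT (-0.34 ± 0.10, adjusted p = 0.0301, edgeR) and relative to HPC het (-0.42 ± 0.10, adjusted p = 0.0114). It was the 1 gene called of 9 in each of these comparisons, where 9.21% and 9.4% of 13855 genes were called. HPC het against HPC WT gave 0.07 ± 0.10 for Jag2 (adjusted p = 0.675, edgeR).

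The difference between the 2 hom effects was tested in one fit of all 18 libraries. The hom effect on Jag2 in HSC minus that in HPC was 0.72 ± 0.13 on the log2 scale (adjusted p = 0.00383, edgeR). The approximate 95% interval was 0.47 to 0.97. Jag2 was the 1 gene called of 9 Notch genes in this comparison, where 2.79% of 15431 genes were called. The call held in all 12 fits that left out 1 library, with log2 values of 0.64 to 0.82 and adjusted p of 0.000534 to 0.0192. The separate effects were less secure. The HSC call was lost without hom replicate 2 (adjusted p = 0.135, edgeR), without WT replicate 1 (0.12), 2 (0.0906) or 3 (0.0866), with a replicate block (0.0522) and with HSC hom and WT fitted alone (0.0622), at log2 values of 0.36 to 0.42. The HPC call against WT was lost without hom replicate 2 (adjusted p = 0.124, edgeR) or 3 (0.0799) and without WT replicate 2 (0.152) or 3 (0.0583), at log2 values of -0.36 to -0.27. The call against HPC het was lost without het replicate 2 (adjusted p = 0.062, edgeR) or hom replicate 2 (0.0619), at log2 values of -0.38 and -0.33.

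**Figure D2:**
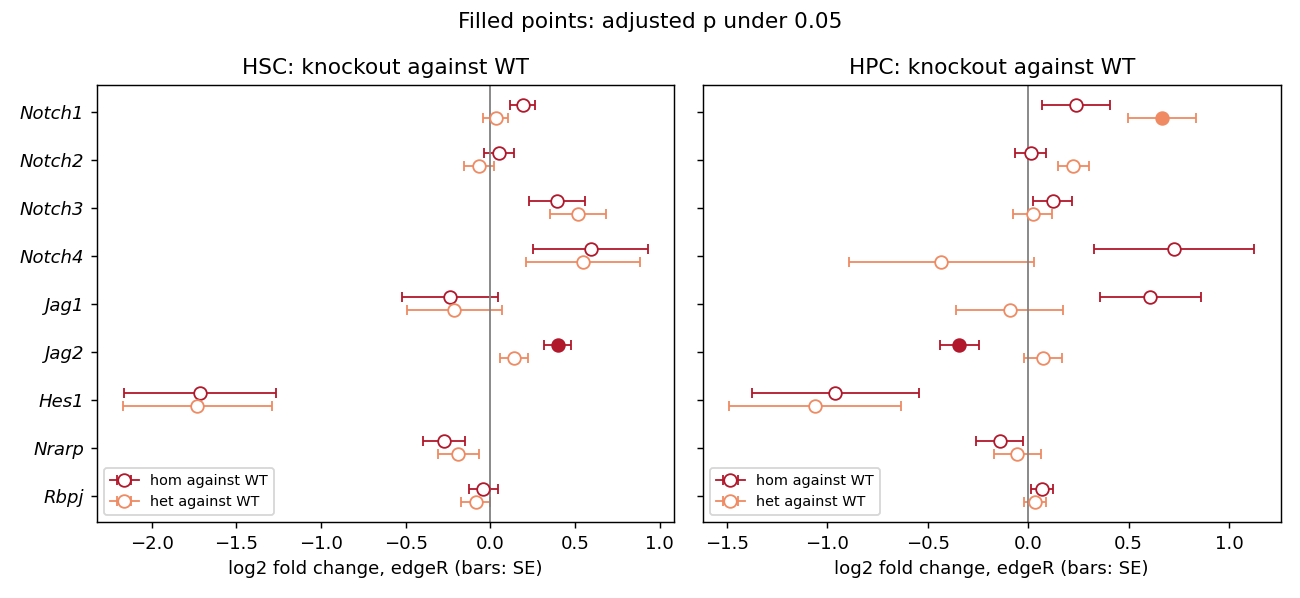
Log2 fold change of the 9 tested genes (rows) for hom against WT (dark red, upper point of each pair) and het against WT (orange, lower point), in HSC (left) and HPC (right), with bars of 1 SE. Filled points passed the test: Jag2 at 0.40 in HSC hom and -0.34 in HPC hom, and Notch1 at 0.67 in HPC het. Hes1 sits far to the left in all 4 comparisons with wide bars.

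In HPC the Jag2 difference from WT stood beside wide differences in maturation markers. Monocyte markers summed to 556 to 633 CPM in HPC hom and 282 to 316 CPM in HPC WT, with 7 of 7 called higher. Neutrophil granule markers summed to 2494 to 2654 CPM in HPC hom and 1518 to 1612 CPM in HPC WT, with 6 of 8 called higher. Of the 9 stem-cell markers tested, 1 was called higher and 5 lower in HPC hom. All 6 dendritic markers were called in HPC hom against WT, Flt3 higher and 5 lower, and all 6 were called lower in HPC hom against het, where 5 of 8 neutrophil granule markers and 4 of 5 erythroid markers were called higher.

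In HSC hom against WT the marker differences were fewer but present. Of 5 dendritic markers tested, 3 fell and 1 rose. H2-Eb1 (-2.09 ± 0.41 on the log2 scale, adjusted p = 0.02, edgeR), H2-Aa (-1.51 ± 0.35, 0.0398) and Ccr7 (-1.37 ± 0.28, 0.0246), genes of antigen presentation and dendritic cell migration, fell to 0.815 to 2.69 CPM on average in HSC hom, against 3.38 to 6.93 CPM in HSC WT. Flt3, a cytokine receptor gene of multipotent and dendritic progenitors, rose by 0.32 ± 0.08 (adjusted p = 0.0467, edgeR), to 242 CPM in HSC hom against 193 CPM in HSC WT. The monocyte marker Ccr2 fell as well (-1.84 ± 0.30, adjusted p = 0.00796, edgeR), while the other 5 monocyte markers tested were not called and the summed monocyte level was 160 to 175 CPM in HSC hom and 168 to 184 CPM in HSC WT. Of the 9 stem-cell markers, 0 were called by edgeR and 1 had an unadjusted p under 0.05. For the difference between the hom effects in HSC and HPC, 5 of 7 monocyte markers and 0 of 6 dendritic markers were called by edgeR, with 1 dendritic marker at an unadjusted p under 0.05. The part of these cells in the Jag2 differences was not tested.

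The genes whose levels followed Jag2 most closely over the 18 libraries, each centred on the mean of its cell type, were Usp19 (Pearson r = 0.865), a deubiquitinase gene, and Col4a1 (r = 0.859), a basement-membrane collagen gene, out of 10113 genes compared. These correlations describe libraries that share genotype and table, and carry no test.

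The other ligand gene, Jag1 (chr2:137081451-137116520, minus strand), encodes the Jagged ligand known from niche cells of the marrow and was scarce here. It measured 2.12, 3.07 and 4.31 CPM in HSC hom, 2.87, 3.83 and 2.99 CPM in HSC het and 2.78, 4.19 and 4.20 CPM in HSC WT, with all groups overlapping. In HPC it measured 1.70, 2.67 and 3.02 CPM in hom, 1.68, 1.48 and 1.41 CPM in het and 1.56, 1.82 and 1.49 CPM in WT. Every HPC hom library lay above every het library, but only 2 of the 3 lay above every WT library. No difference in Jag1 between genotypes was called. The largest in HPC was hom against het, at 0.70 ± 0.26 on the log2 scale (adjusted p = 0.0979, edgeR), which was called when hom replicate 1 was left out.

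Rbpj (chr5:53555779-53657445, plus strand), the gene of the DNA-binding partner of all 4 receptors, was called in no genotype comparison. In HSC it measured 109, 120 and 135 CPM in hom, 120, 119 and 113 CPM in het and 135, 125 and 114 CPM in WT. In HPC it measured 149, 158 and 166 CPM in hom, 153, 152 and 157 CPM in het and 149, 151 and 152 CPM in WT. The HSC groups overlapped, the HPC hom and WT libraries overlapped, and the HPC het libraries lay just above the WT libraries. The approximate 95% intervals of the log2 difference of hom from WT were -0.21 to 0.13 in HSC and -0.04 to 0.18 in HPC.

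Of the 9 genes tested, the target Hes1, a repressor gene, had the largest fitted differences from WT, at low counts and without a call. Hes1 (chr16:30065357-30067796, plus strand) had 6, 18 and 16 counts in the HSC hom libraries, 16, 7 and 25 counts in HSC het and 50, 47 and 44 counts in HSC WT. These are 0.335, 0.824 and 0.830 CPM in hom, 0.589, 0.344 and 1.04 CPM in het and 2.73, 2.05 and 1.88 CPM in WT. Every hom and het library lay below every WT library, and hom and het overlapped each other. The fitted log2 differences were -1.72 ± 0.45 for HSC hom against WT, at 30.4% of the WT level (adjusted p = 0.0618, edgeR), and -1.73 ± 0.44 for HSC het against WT (adjusted p = 0.17). Neither was called. DESeq2 called Hes1 in HSC hom (adjusted p = 0.0138), as did edgeR with no filter on low counts (0.00454) and without hom replicate 3 (0.044), and edgeR called the het difference with no filter (0.00792) and with HSC het and WT fitted alone (0.0374).

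In HPC, Hes1 had 5, 21 and 15 counts in hom, 5, 14 and 16 counts in het and 34, 20 and 33 counts in WT. These are 0.266, 1.02 and 0.707 CPM in hom, 0.300, 0.768 and 0.780 CPM in het and 1.56, 0.934 and 1.44 CPM in WT. The het libraries lay below all WT libraries, and 1 of the 3 hom libraries lay above the lowest WT library. The log2 differences from HPC WT were -0.96 ± 0.42 for hom (adjusted p = 0.181, edgeR) and -1.06 ± 0.43 for het (adjusted p = 0.102), neither called. The hom effect in HSC minus that in HPC was -0.77 ± 0.65 for Hes1 (adjusted p = 0.585, edgeR), so the 2 cell types could not be told apart at these counts.

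Nrarp (chr2:25180758-25183339, plus strand), a target whose product feeds back on the Notch complex, was better covered. It measured 20.5, 24.9 and 19.8 CPM in HSC hom, 21.6, 21.7 and 25.8 CPM in HSC het and 23.2, 28.6 and 26.9 CPM in HSC WT. The groups overlapped, and hom against WT gave -0.27 ± 0.12 on the log2 scale (adjusted p = 0.263, edgeR). In HPC it measured 8.20, 10.2 and 8.43 CPM in hom, 9.23, 10.2 and 9.16 CPM in het and 10.1, 9.76 and 9.83 CPM in WT, and hom against WT gave -0.14 ± 0.12 (adjusted p = 0.526, edgeR). Dtx1 (chr5:120680203-120711867, minus strand) had 5, 5 and 0 counts in HSC hom, 1, 2 and 0 counts in HSC het and 1, 3 and 3 counts in HSC WT. It had 3, 6 and 0 counts in HPC hom, 2, 5 and 3 counts in HPC het and 4, 3 and 5 counts in HPC WT, so no difference was detectable at this depth.

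Counted without a test, the hom libraries did not overlap the WT libraries for 4 of the 9 tested genes in HSC (Notch1, Notch4 and Jag2 above, Hes1 below), where 24.5% of all genes were apart. In HPC hom against WT they were apart for 2 of 9 (Notch4 above, Jag2 below), where 26.4% of all genes were. In HSC het against WT they were apart for 4 of 9 (Notch3, Notch4 and Jag2 above, Hes1 below) against 23% of all genes, and in HPC het against WT for 3 of 9 (Notch1 and Rbpj above, Hes1 below) against 33.9%. In HSC het against WT and in HSC hom against het, 0 of the 9 genes were called by edgeR, where 0.0334% and 0.0134% of 14959 genes were called. At an unadjusted p under 0.05 they were 2 of 9, beside 13.8% of all genes, and 1 of 9, beside 11.7%, and DESeq2 called 0 in each. By edgeR, 5 of 9 were under that threshold in HSC hom against WT and 5 of 9 in HPC hom against het. There were 3 of 9 in HPC hom against WT and 3 of 9 in HPC het against WT. For these other comparisons the share of all genes at that threshold was not counted. The median log2 difference of the 9 genes was 0.05 in HSC hom and 0.07 in HPC hom against WT, beside 0.00 over all genes.

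Wild-type HSC and HPC differed widely, with 54.9% of 15431 genes called, 27.7% higher and 27.2% lower in HSC WT. Of the 9 Notch genes 6 were called, 4 higher and 2 lower, a share near that of all genes. Jag2 measured 53.5, 58.9 and 57.4 CPM in the HSC WT libraries and 25.5, 28.4 and 25.6 CPM in the HPC WT libraries, on the scale of the fit of all 18 libraries, and was higher in HSC by 1.10 ± 0.09 on the log2 scale (adjusted p = 9.77e-10, edgeR). Nrarp measured 21.8, 26.9 and 25.2 CPM in HSC WT and 10.9, 10.4 and 10.5 CPM in HPC WT on that scale, and was higher in HSC by 1.21 ± 0.12 (adjusted p = 1.68e-08, edgeR). The HSC and HPC libraries of both genes were far apart. Notch3 (0.73 ± 0.15, adjusted p = 0.000303, edgeR) and Jag1 (1.01 ± 0.27, adjusted p = 0.00316) were also higher in HSC. Rbpj measured 127, 118 and 107 CPM in HSC WT and 161, 161 and 163 CPM in HPC WT, and was lower in HSC (-0.47 ± 0.07, adjusted p = 9.6e-06, edgeR). Notch2 was lower in HSC as well, at 156, 163 and 168 CPM in HSC WT and 214, 244 and 228 CPM in HPC WT (-0.49 ± 0.09, adjusted p = 5.46e-05, edgeR). Notch1 (0.26 ± 0.12, adjusted p = 0.0824), Notch4 (0.87 ± 0.38, 0.0549) and Hes1 (0.55 ± 0.42, 0.269) were not called by edgeR. Relative to scaling within each cell type, the joint scaling lowers every HSC minus HPC difference by a median of 0.20 on the log2 scale (a shift of -0.20).

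Across the 6 groups on the joint scale, Jag2 ranked HSC hom, HSC het, HSC WT, HPC het, HPC WT and HPC hom, and only HPC het and HPC WT overlapped as neighbours. Notch3 and Nrarp were higher in every HSC library than in every HPC library, whereas Rbpj and Notch2 were higher in every HPC library than in every HSC library. For Notch1 the neighbours in rank overlapped except HSC hom above HSC het. For Hes1 the HSC WT and HPC WT groups ranked above the 4 knockout groups, which overlapped each other.

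Levels between genes were compared per kilobase of exon. In HSC WT the order was Notch2 at 15.5 ± 0.60 CPM per kb, Jag2 at 10.8 ± 0.53, Nrarp at 9.55 ± 1.01, Notch1 at 8.68 ± 0.40, Rbpj at 6.71 ± 0.56 and Notch3 at 4.13 ± 0.38 (SD, n = 3). Jag2 and Nrarp, and Nrarp and Notch1, overlapped between libraries. In HPC WT the order was Notch2 at 21.8 ± 1.42 CPM per kb, Rbpj at 9.25 ± 0.05, Notch1 at 7.25 ± 1.21, Jag2 at 5.05 ± 0.31, Nrarp at 4.12 ± 0.10 and Notch3 at 2.49 ± 0.16, and no neighbours overlapped. Hes1, Jag1, Notch4 and Dtx1 followed in that order in both, with Hes1 at 1.21 ± 0.24 CPM per kb in HSC WT and 0.816 ± 0.212 in HPC WT. The exons of Rbpj sum to 17477 bases over all its annotated transcripts, the longest of the 10 genes, which lowers its value on this scale.

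**Figure D3:**
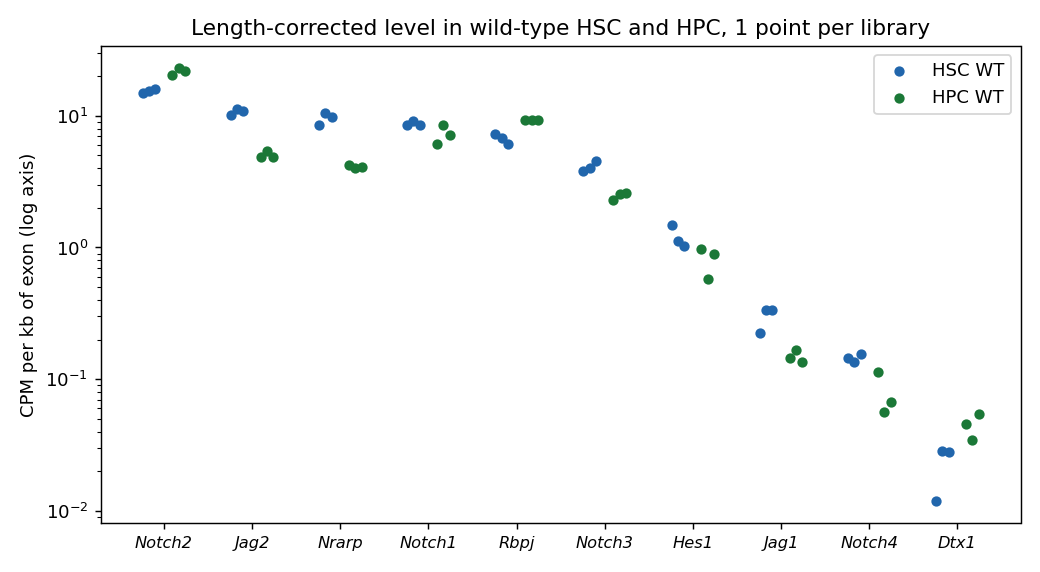
Level per kilobase of exon (y axis, CPM per kb on a log axis, scaled over all 18 libraries) of the 10 genes, ordered along the x axis by their mean in HSC WT, in the 3 HSC WT libraries (blue, left of each pair) and the 3 HPC WT libraries (green, right). Jag2, Nrarp and Notch3 lie higher in HSC WT and Notch2 and Rbpj higher in HPC WT, and Dtx1 lies lowest in both.

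A further 80 genes of the pathway were read in 6 lists: 5 other ligands, 9 glycosyltransferases that modify the receptors, 10 proteases that cut them, 18 genes of trafficking and turnover, 19 of the nuclear complex and 19 other targets. In HSC hom against WT, 1 of the 71 tested was called, where 2.01% of all genes were. Tcf7, a transcription factor gene of early T-cell development, averaged 6.48 ± 0.86 CPM in HSC hom and 12.2 ± 2.1 CPM in HSC WT (SD, n = 3), and fell by 0.92 on the log2 scale (adjusted p = 0.0154, edgeR). That call was lost without hom replicate 2 (adjusted p = 0.0806, edgeR) and without WT replicate 2 (0.101). DESeq2 called 4 of the 71 (Tcf7, Nedd4, Ccnd1 and Bcl2), and edgeR called 0 to 5 without 1 library, the most without hom replicate 1. In HSC het against WT and in HSC hom against het, 0 of the 71 were called by edgeR. The shares of all genes called were 0.0334% and 0.0134%. At an unadjusted p under 0.05 there were 12 and 6 of the 71, beside 13.8% and 11.7% of all genes. In HSC hom against WT there were 17 of the 71, and the share of all genes at that threshold was not counted. DESeq2 called 1 (Ccnd1) and 0 of the 71. The median log2 difference of the 71 in HSC hom against WT was 0.03, beside 0.00 over all genes.

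In HPC hom against WT, 6 of 69 tested genes rose and 7 fell, where 9.21% of all genes were called, with a median log2 difference of 0.01 beside 0.00 over all genes. Of these 13 calls, 4 held in each of the 6 fits without 1 library, and only these 4 are named. Tcf7 fell by 1.41 on the log2 scale, to 2.98 ± 0.95 CPM in HPC hom against 7.93 ± 0.37 CPM in HPC WT (adjusted p = 4.36e-05, edgeR). Ccnd1, the cyclin D1 gene, fell by 1.10, to 7.82 ± 0.82 CPM in HPC hom against 16.7 ± 1.1 CPM in HPC WT (adjusted p = 1.38e-05, edgeR), and 21.7% of its exon bases also lie in exons of LTO1. Adam17, a protease gene whose product cuts the extracellular part of Notch, rose by 0.33 to 234 ± 6.8 CPM in HPC hom against 186 ± 6.5 CPM in HPC WT (adjusted p = 0.00066, edgeR). Runx1, the RUNX gene needed for blood stem cells to form, rose by 0.29 to 281 ± 17 CPM in HPC hom against 230 ± 8.9 CPM in HPC WT (adjusted p = 0.00421, edgeR). Of the 13 other targets tested, 1 rose, 6 fell and 6 did not pass. T-cell markers summed to 7.02 to 10.0 CPM in HPC hom and 12.6 to 13.6 CPM in HPC WT, with Cd3e at 0 counts in both groups. Of 3 T-cell markers tested, Lck was called lower and 2 did not pass, and the median log2 difference of the 3 was 0.58. The marker differences from HPC WT given with Jag2 belong to this same comparison. The part of all these markers in the called genes was not tested.

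In HPC het against WT, 13 of the 69 rose and 2 fell, with a median log2 difference of 0.04. Both directions together, this share was near the 16.1% of all genes called. Over all genes the called were not counted by direction in this comparison. The splits between rising and falling genes given here therefore have no share of all genes beside them. Of these 15 calls, 12 held in each of the 6 fits without 1 library. In trafficking and turnover, 3 of 17 rose and 0 fell: Neurl3, an E3 ligase gene of the Neuralized family (0.53 ± 0.06, adjusted p = 9.77e-06, edgeR), Dtx4, a Deltex-family ligase gene (0.62 ± 0.08, 4.7e-05), and Dtx3l (0.28 ± 0.06, 0.00245). In the nuclear complex, 4 of 19 rose and 0 fell, among them the coactivator gene Maml3 (0.44 ± 0.08, adjusted p = 0.00125, edgeR), the corepressor gene Cir1 (0.31 ± 0.06, 0.00242) and L3mbtl3 (0.31 ± 0.07, 0.00306). Among the proteases, 4 of 10 rose and 0 fell, among them Furin, which cleaves the receptor precursor (0.33 ± 0.07, adjusted p = 0.0036, edgeR), Aph1c, of the gamma-secretase complex (0.54 ± 0.13, 0.00596), and Adam17 (0.24 ± 0.06, 0.00751). Among the other targets, Il2ra, the interleukin 2 receptor alpha gene, rose to 5.08 ± 0.25 CPM in HPC het against 2.42 ± 0.47 CPM in HPC WT (1.07 ± 0.21, adjusted p = 0.00192, edgeR). Bcl2, which blocks apoptosis, fell by 0.38 (adjusted p = 0.000737, edgeR), and Ccnd1 fell by 0.53 (adjusted p = 0.00686). The marker sums given with Notch1 belong to this same comparison and went both ways, and their part in these genes was not tested.

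In HPC hom against het, 0 of the 69 rose and 8 fell, a share near the 9.4% of all genes called in either direction. Here too the called genes were not counted by direction over all genes. Of the 8 calls, 3 held in each fit without 1 library. These were Tcf7 (-1.26 ± 0.19, adjusted p = 0.000362, edgeR), Dlk1, a Delta-like protein gene without the usual activating domain (-0.68 ± 0.15, 0.00724), and Neurl3 (-0.28 ± 0.06, 0.00784). The annotation lists Dlk1 on 1 further contig as well. The median log2 difference of the 69 was -0.06, beside 0.00 over all genes. In this comparison all 6 dendritic markers were called lower, and neutrophil and erythroid markers higher as given with Jag2.

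In HSC WT against HPC WT, 20 of the 71 were called higher and 25 lower, where 54.9% of all genes were called, and 40 of the 45 calls held in each fit without 1 library. Dll4, a Delta-like ligand gene, averaged 1.46 ± 0.97 CPM in HSC WT and 0.0908 ± 0.0031 CPM in HPC WT, which is below 3 counts per library. Dtx4 averaged 1.56 ± 0.18 CPM in HSC WT and 49.3 ± 6.0 CPM in HPC WT and was lower in HSC (-5.18 ± 0.14 on the log2 scale, adjusted p = 3.4e-17, edgeR). Il2ra averaged 28.7 ± 1.5 CPM in HSC WT and 2.42 ± 0.47 CPM in HPC WT (3.37 ± 0.31, adjusted p = 1.39e-07, edgeR). Mfng, a Fringe glycosyltransferase gene, was higher in HSC (0.55 ± 0.06, adjusted p = 6.64e-08, edgeR) and Adam17 lower (-0.84 ± 0.06, adjusted p = 3.2e-10). These average levels were scaled within each cell type.

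**Figure D4:**
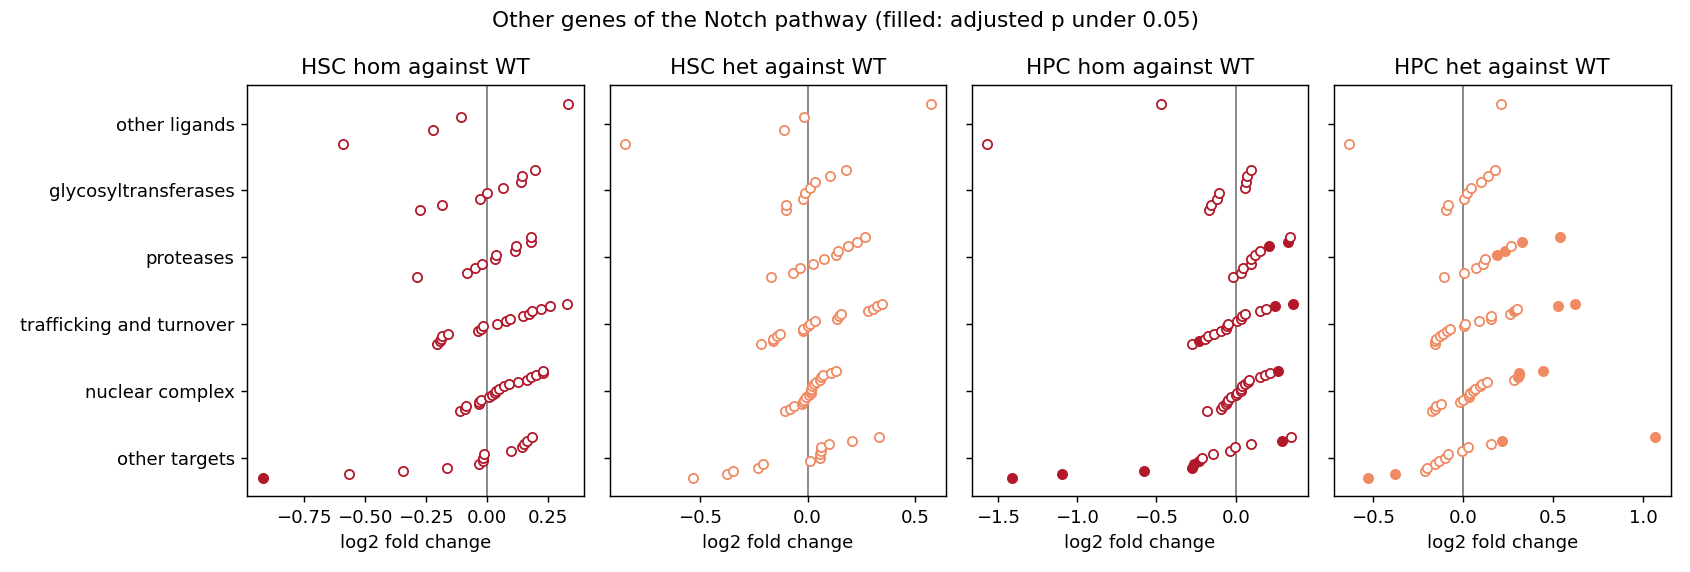
Log2 fold change (x axis) of the tested genes of the 6 wider pathway lists (rows, 1 point per gene) for hom against WT and het against WT in HSC and HPC (panels), with filled points where the adjusted p was under 0.05. The single filled point in HSC hom is Tcf7, HSC het has none, and HPC het has 13 filled points to the right of 0 and 2 to the left. The called among all genes were not counted by direction for these comparisons.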

How the data were processed

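Per the labels, the values come from polyadenylated RNA of sorted and cultured bone marrow cells. The deposited values are raw counts per gene, 1 table per cell type. Per the submitters' processing notes, reads went through FastQC, Trim Galore 0.6.10 and STAR 2.7.11a. Per the file headers, featureCounts 2.0.6 counted read pairs over exons of an mm10 RefSeq annotation, without strand and with no option to count a pair for overlapping genes. The notes name mm39. The deposited coordinates are those of mm10 and are used here. The CUT&Tag samples were not analysed here.

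Genes, lists and tests were chosen with earlier results of these data known. Named from the wider lists are called genes, at most 4 per list and comparison by p, and within these mainly those still called without any 1 library. Counts were fitted with edgeR 4.0.16 in R 4.3.3: TMM scaling, the tool's filter on low counts (minimum 10), robust quasi-likelihood F tests, and Benjamini-Hochberg adjustment across each fit's genes at a threshold of 0.05. One fit per cell type (9 libraries, 14959 genes in HSC and 13855 in HPC) gave the genotype comparisons. One fit of 18 libraries (15431 genes) gave the 2 comparisons across cell types. The 95% intervals are approximate, 1.96 SE either side. For F tests on few libraries this multiple is too small, so the intervals are somewhat too narrow. CPM were computed from the counts and TMM factors. Correlations of deviations from group means could not decide whether equal replicate numbers mark paired libraries, as they were low throughout. In each cell type, 2 of 9 same-number and 2 of 18 other correlations were over 0.1. The highest were 0.14 and 0.20 in HSC, and 0.23 and 0.27 in HPC. The fits were checked on simulated counts with 100 genes changed 2-fold and 100 changed 1.5-fold. Recovered were 93% and 73% in HSC hom against WT and 91% and 81% in HPC hom against WT. For the difference in the hom effect they were 77% and 47%, so a change of that size can go uncalled. False calls numbered 6, 8 and 8. The simulated spread followed the trend over genes and not each gene's own, so recovery in the real counts may be lower. Alternatives were DESeq2 1.42.0, other scaling and filters, a replicate block, fits of the compared groups alone and leaving out each library.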

Additional observations from a re-analysis of the deposited data

Results flagged for a closer look

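In 1 of the 9 Notch genes and 3 of the 71 wider pathway genes tested, the hom effect in HSC differed from that in HPC by edgeR's test of the difference itself, where 2.79% of all genes were called. For Jag2 the HSC effect minus the HPC effect was 0.72 on the log2 scale (adjusted p = 0.00383), and it held in all 12 fits without 1 library.

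For the protease gene Adam17 the difference was -0.40 ± 0.09 (adjusted p = 0.0204, edgeR). Adam17 averaged 115 ± 10 CPM in HSC hom against 119 ± 2.3 CPM in HSC WT, and 234 ± 6.8 CPM in HPC hom against 186 ± 6.5 CPM in HPC WT (SD, n = 3). The call was lost in 5 of 12 fits without 1 library. These left out HSC hom replicate 2 (adjusted p = 0.0688), HSC WT replicate 2 (0.0559), HPC hom replicate 1 (0.0504) and HPC WT replicates 2 (0.0551) and 3 (0.0902), all by edgeR.

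For Itch, the gene of a ubiquitin ligase that acts on Notch, the difference was -0.40 ± 0.10 (adjusted p = 0.039, edgeR), with 109 ± 9.8 CPM in HSC hom against 124 ± 6.2 CPM in HSC WT, and 152 ± 3.2 CPM in HPC hom against 133 ± 11 CPM in HPC WT. It was called in 2 of 12 fits without 1 library, those without HSC WT replicate 1 and without HSC hom replicate 3, and had adjusted p of 0.0563 to 0.121 in the other 10. It was also lost with a minimum of 1 CPM in 3 libraries (0.0571), with a replicate block (0.0569) and with the compared groups alone (0.0519).

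For Runx3, another RUNX gene, the difference was 0.38 ± 0.10 (adjusted p = 0.0488, edgeR), with 148 ± 2.4 CPM in HSC hom against 134 ± 2.2 CPM in HSC WT, and 128 ± 16 CPM in HPC hom against 153 ± 6.6 CPM in HPC WT. It was lost in 9 of 12 such fits, with adjusted p of 0.0585 to 0.129, and with the compared groups alone (0.0633), and the annotation lists Runx3 on 1 further contig.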

How the results depend on the processing

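The genotype calls rest on few libraries. Of the 9 Notch genes, edgeR called 1 in HSC hom against WT, but 2 with DESeq2 (Hes1 and Jag2), 3 with no filter on low counts (also Notch3), 0 with a replicate block, 0 with the compared groups alone, and 0 to 2 without 1 library. In HSC het against WT, 0 were called, but 2 with no filter and 2 with the groups alone (Notch3 and Hes1). In HSC hom against het it was 0, and 0 to 1 without 1 library. In HPC hom against WT it was 1, and 0 to 1 without 1 library. In HPC het against WT it was 1, but 2 with DESeq2, 2 with the block (Notch2 and Notch1), 0 with the groups alone, and 0 to 2 without 1 library. In HPC hom against het it was 1, but 2 with no filter (Jag2 and Notch2), 2 with the block (Jag2 and Notch1), and 0 to 3 without 1 library. The counts for the difference in the hom effect (1) and for HSC WT against HPC WT (6) stayed within 1.5 times under every alternative run. The cause of these shifts was not tested, and no called value changed sign.

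Whether replicate numbers pair the libraries is not known, and with the block the adjusted p of Jag2 in HSC hom was 0.0522 (edgeR). Over all genes, calls in HSC hom against WT numbered 300, but 794 with DESeq2, 898 with no filter, 189 with the block, 155 with the groups alone and 48 to 638 without 1 library. In HSC het against WT they numbered 5, but 220 with DESeq2, 399 with no filter and 299 with the groups alone and 2 to 7 without 1 library, and in HSC hom against het 2, but 160, 511 and 1, and 1 to 408 without 1 library (the most without hom replicate 3). In HPC hom against het they numbered 1303, but 701 without het replicate 2 and 797 without hom replicate 3. For the difference in the hom effect they numbered 431, but 831 with DESeq2, 738 with no filter and 149 to 941 without 1 library. Depth limits Hes1, Notch4, Jag1 and Dtx1 most.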
